A study of Mus musculus with 16 samples.

Results

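The 6 genes described here, Nr4a1, Nr4a2, Nr4a3, Egr1, Egr2 and Egr3, encode transcription factors of the NR4A and EGR families, and they were chosen by name, as 6 of the 55335 gene identifiers counted. Their RNA was measured in CD8 T cells enriched from mouse spleen in the strain C57BL/6, from wild-type animals (wt) and from animals lacking Batf3 (Batf3 ko). Both genotypes were stimulated with plate-bound anti-CD3e at 1 µg/ml and anti-CD28 at 1 µg/ml in medium with 50 ng/ml IL-15, and were collected after 48 h or 72 h, which gave 4 groups of 4 poly-A RNA libraries. There was no unstimulated group, no age was given, and mice without Batf3 are also known to lack a class of dendritic cells, so the ko T cells came from animals that differ in more than the T cells. Per the series text the 4 libraries of each condition are technical replicates. The p-values below therefore rest on variation among such libraries, and how animals vary is not in them. In bulk RNA, fewer cells that express a gene and less RNA of that gene per cell cannot be told apart.

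NR4A and EGR genes are early response genes: they are switched on within the first hours after the T cell receptor is engaged, downstream of calcium, calcineurin and NFAT and of the ERK pathway with its factors ELK and SRF, and their RNAs are short-lived. NR4A proteins are orphan nuclear receptors that bind the NBRE element without a ligand, and in CD8 T cells they are known for restraining effector function and for a part in exhaustion. EGR proteins are zinc finger factors that bind GC-rich sites. EGR1 is linked to activation and growth, EGR2 and EGR3 restrain T cell activation and are linked to anergy, and the NAB proteins bind EGR proteins and repress their activity. Batf3 encodes a basic leucine zipper factor of the AP-1 group that pairs with JUN proteins.

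Library totals ran from 29375818 to 39241169 counts, and levels are given as CPM, counts scaled to a common library total. A count of 0 still allows 3 counts, here 0.0765 to 0.102 CPM, for counting error only. The ko libraries held between 0 and 11 Batf3 reads, and the wt libraries between 844 and 3441. Replicate 4 of the ko group at 48 h and replicate 4 of the wt group at 72 h stood farthest from the rest of their groups. The CD8 T cell markers were high in all 4 groups, with Cd8a between 286 and 345 CPM as group means. The 8 of them summed to 2108 to 2181 CPM in wt and 2222 to 2335 CPM in ko libraries at 48 h. At 72 h the sums were 2757 to 2803 CPM in wt and 2967 to 3081 CPM in ko, again without overlap. They did not move as one: at 72 h Cd8a had means of 345 CPM in wt and 306 CPM in ko, and Cd3d 406.5 and 538 CPM. The sums of the 5 CD4 T cell genes overlapped between the genotypes at both times. Among markers of other cells, the summed level of the 8 B cell genes ran from 223 to 293 CPM in wt and from 305 to 335 CPM in ko libraries at 72 h, nearly all of it Ighm, while Ms4a1 and Pax5 were below 0.1 CPM in each group. The 12 macrophage, monocyte and granulocyte genes summed to between 26.6 and 33.6 CPM in wt and between 62.3 and 66.0 CPM in ko at 72 h, mostly Ccr2, Cd68 and Fcgr3, with Adgre1, S100a8 and S100a9 at 0 counts in all 16 libraries. At 48 h the B cell sum was 246 to 257 CPM in wt and 285 to 318 CPM in ko, and the macrophage, monocyte and granulocyte sum 8.57 to 11.1 CPM in wt and 16.9 to 19.6 CPM in ko, both without overlap. Of the 7 dendritic cell genes, Clec9a, Siglech and Cd209a were at 0 counts in all 16 libraries, and the sum did not exceed 5.99 CPM in any library. The 8 NK cell genes summed to between 67.6 and 75.5 CPM in wt and between 66.4 and 72.1 CPM in ko at 72 h, where 5 of them were called higher in ko (Tyrobp, Klre1, Klrc2, Klrb1c and Fcer1g, log2 fold changes from 0.47 to 1.27) and Eomes lower at -0.46 (edgeR). At 48 h 4 of the 8 were higher in ko and 0 lower (edgeR). Ribosomal protein genes took 14.1% to 15.3% of counts in wt and 17.4% to 18.3% in ko at 72 h. The part of these differences in the results below was not tested.

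The RefSeq promoter table (GRCm38.p6) held a record for 4 of the 6, Nr4a1, Nr4a2, Nr4a3 and Egr2. The 250 bases before each start are shown as a description, and a link to RNA levels in ko cells was not tested. The windows are chr15:101266596-101266845 on the plus strand for Nr4a1, chr2:57124004-57124253 on the minus strand for Nr4a2 and chr10:67537619-67537868 on the plus strand for Egr2, for which 5 starts are listed and the one of a principal GENCODE transcript was taken. For Nr4a3, on the plus strand, the window is chr4:48045055-48045304. Its first 98 bases, chr4:48045055-48045152, are printed, since the other 152 lie in an exon of GENCODE; its RefSeq start is not that of a principal GENCODE transcript. Capitals mark TGACG, the core of the cAMP response element (CRE) bound by CREB and ATF proteins, or its complement CGTCA, and in Egr2 also the CArG box bound by SRF.
Nr4a1: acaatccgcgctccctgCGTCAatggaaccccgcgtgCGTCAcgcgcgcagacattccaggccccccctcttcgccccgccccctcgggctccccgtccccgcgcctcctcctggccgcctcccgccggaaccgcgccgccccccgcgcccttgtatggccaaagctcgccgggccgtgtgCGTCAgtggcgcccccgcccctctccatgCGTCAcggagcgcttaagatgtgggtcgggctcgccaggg
Nr4a2: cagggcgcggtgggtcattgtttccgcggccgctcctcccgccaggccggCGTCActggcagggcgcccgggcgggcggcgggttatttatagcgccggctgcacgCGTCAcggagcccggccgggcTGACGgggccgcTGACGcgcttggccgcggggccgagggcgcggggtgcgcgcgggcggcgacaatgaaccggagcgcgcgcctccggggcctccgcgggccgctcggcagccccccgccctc
Nr4a3: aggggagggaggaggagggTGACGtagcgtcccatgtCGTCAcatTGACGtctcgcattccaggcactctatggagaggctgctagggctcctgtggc
Egr2: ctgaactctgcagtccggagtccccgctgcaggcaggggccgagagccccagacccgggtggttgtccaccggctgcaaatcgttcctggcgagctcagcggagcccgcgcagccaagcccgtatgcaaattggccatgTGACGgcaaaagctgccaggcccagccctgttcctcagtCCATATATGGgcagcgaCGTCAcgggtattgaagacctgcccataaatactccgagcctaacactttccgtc

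Each of the 3 NR4A windows held 4 TGACG motifs, counting both strands, but the last of those of Nr4a3 lies in the GENCODE exon, so that 3 lie upstream of it. Of 32536 distinct promoter windows of this length, 17.9% held at least 1 such motif and 45 (0.138%) held 4 or more. By gene these were 44 of 27025, or 0.163%. G and C made up 74.4% of the window of Nr4a1, 80.0% of Nr4a2, 63.6% of Nr4a3 and 61.6% of Egr2. The shares over all windows here and below were not matched for this content, so they do not say how rare the motifs are among windows like these. Egr2 held 2, where 3.92% of all windows hold 2 or more, and it held a CArG box from -72 to -63, which 1.48% of windows hold. The full CRE TGACGTCA (1.56% of windows), the NR4A element AAAGGTCA (1.35%), the AP-1 site TGANTCA (6.73%) and the NFAT core GGAAAA (20.4%) had no match in the 4 windows on either strand. The EGR site GCGTGGGCG (0.541% of windows) had no match either. Nr4a1 held the EGR site GCGGGGGCG (2.6%) from -60 to -52 and the ETS core CCGGAA (12.1%) from -125 to -120. The TGACG motif was searched after the sequences had been seen, it lies inside the full CRE, and a match is a description of letters and not of binding.

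**Figure D1:**
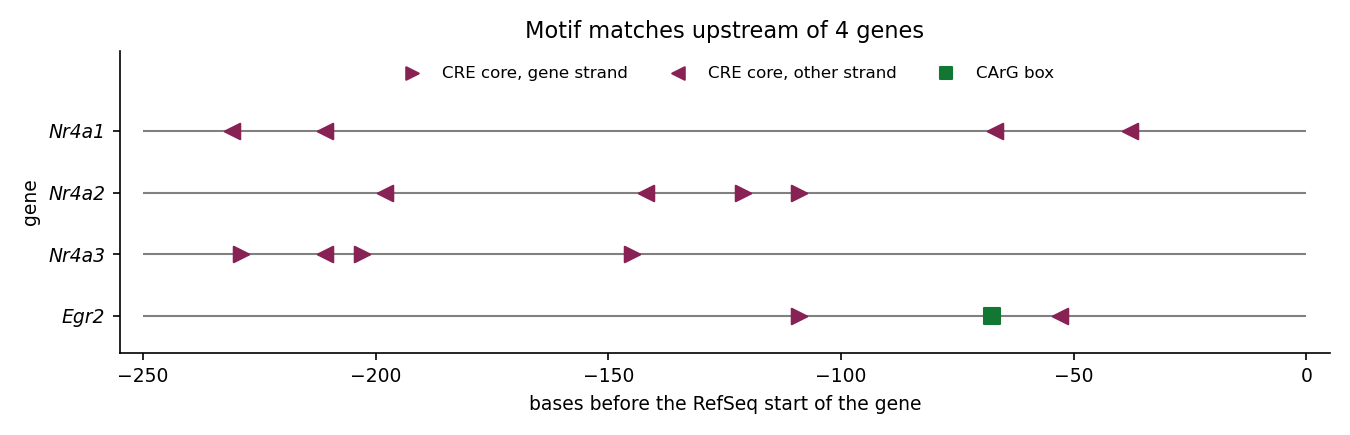
Positions of TGACG, the core of the CRE (triangles, pointing along the strand that reads it), and of the CArG box (square) in the 250 bases before the RefSeq start of Nr4a1, Nr4a2, Nr4a3 and Egr2; the x axis is in bases from the start. The windows of the 3 NR4A genes hold 4 TGACG motifs each and that of Egr2 holds 2, with no full CRE; the rightmost motif of Nr4a3 lies in a GENCODE exon.

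The 6 genes lie on 6 different chromosomes, so none is a neighbour of another, and no other gene of the GENCODE annotation overlaps one of them. In GRCm38 they span chr15:101254269-101274795 (Nr4a1), chr2:57106830-57124003 (Nr4a2), chr4:48045153-48086447 (Nr4a3), chr18:34859823-34864984 (Egr1), chr10:67535475-67542188 (Egr2) and chr14:70077203-70082614 (Egr3).

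Compared per kilobase of exon, the NR4A genes carried most of the RNA of these 6 in wt cells at 48 h. The length used is that of all annotated exons of a gene, 5987 bases for Nr4a3 and 3509 for Nr4a1. Which transcripts were present was not examined. The order of genes with close levels and their shares depend on these lengths, and the SDs do not hold that uncertainty. Nr4a3 stood at 38.9 ± 0.501 CPM per kb (SD, n = 4) and Nr4a1 at 35.2 ± 1.57, and the 2 groups of values did not overlap. Far below them, Egr1 (5.38 ± 0.0995) and Egr3 (5.2 ± 0.292) overlapped, followed by Nr4a2 at 4.03 ± 0.303 and Egr2 at 3.20 ± 0.355 CPM per kb. At 72 h in wt cells Nr4a1 led with 31.6 ± 1.40 CPM per kb, Nr4a3 had moved to 20.5 ± 1.01, and Egr1, Nr4a2 and Egr3 overlapped in turn at 9.86 ± 1.31, 9.21 ± 0.863 and 8.05 ± 1.56, with Egr2 lowest at 2.97 ± 0.390. In ko cells at 48 h Nr4a1 (33.5 ± 4.46) and Nr4a3 (25.8 ± 4.21 CPM per kb) overlapped, as did Egr1, Nr4a2 and Egr3 in turn between means of 4.74 and 5.06, and Egr2 lay below them at 2.35 ± 0.665. In ko cells at 72 h Nr4a1 stood alone at 17.7 ± 1.85 CPM per kb, and Nr4a3 at 7.21 ± 0.529 overlapped with Egr1 at 5.91 ± 1.88, which overlapped with Nr4a2 at 4.01 ± 0.557. Egr3 (2.54 ± 0.636) and Egr2 (1.04 ± 0.536) were lowest there, with no overlap. The remaining EGR gene, Egr4, had a group mean of at most 0.349 CPM and was not tested.

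Added up, the 3 NR4A genes gave 78.1 ± 1.40 CPM per kb (SD, n = 4) in wt at 48 h, 64.1 ± 9.27 in ko at 48 h, 61.3 ± 2.74 in wt at 72 h and 28.9 ± 2.12 in ko at 72 h. Nr4a3 made up 49.8% ± 1.14 of that sum in wt and 40.2% ± 1.20 in ko at 48 h, and 33.4% ± 0.397 in wt and 24.9% ± 0.588 in ko at 72 h. The share of Nr4a1 was 45.0% ± 1.33, 52.4% ± 1.03, 51.6% ± 1.45 and 61.2% ± 2.16 in the same order. The 3 EGR genes gave 13.8 ± 0.385, 12.1 ± 1.90, 20.9 ± 3.02 and 9.48 ± 2.96 CPM per kb. Their sum was higher at 72 h than at 48 h in wt cells with no overlap, while the ko libraries at 72 h ran from 6.52 to 13.5 and overlapped with those at 48 h.

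At 48 h, Nr4a3 was the only one of the 6 genes whose RNA differed between the genotypes past the threshold of an adjusted p of 0.05 (edgeR's quasi-likelihood test over 15197 tested genes). Nr4a3, which in activated CD8 T cells acts alongside its 2 paralogs, stood at 237, 233.5, 232 and 229.8 CPM in the wt libraries and at 138, 138, 151 and 191 CPM in the ko libraries. The groups did not overlap, and replicate 4 of the ko group was the highest of its group. The fitted log2 change was -0.56 (SE 0.0715, adjusted p = 1.34e-05, edgeR's quasi-likelihood test), a level 0.677 times that of wt. Without that library it was -0.66 (adjusted p = 1.59e-08, edgeR). Thus 1 of 6 genes was lower and 0 higher, where 2.66% of all tested genes were lower, 4.41% higher and 7.07% called in either direction; the median log2 fold change was -0.08 over the 6 genes and 0.01 over all tested genes.

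The other 5 genes overlapped between the genotypes at 48 h. Nr4a1, the NR4A gene used as a reporter of receptor signalling, had 120.3, 119, 131 and 124 CPM in wt and 104, 113, 113.5 and 140.1 CPM in ko, a log2 fold change of -0.04 with a 95% interval from -0.19 to 0.11. Nr4a2, the lowest of the NR4A genes per kb in wt cells, had 18.1, 15.2, 15.8 and 16.4 CPM in wt and 17.0, 18.9, 18.5 and 23.4 CPM in ko. The fitted log2 change was 0.28 (SE 0.0978, adjusted p = 0.0805 in edgeR's quasi-likelihood test), on the opposite side of 0 from Nr4a3 but not past the threshold. Egr1 had 24.2, 23.9, 24.6 and 23.6 CPM in wt and 19.2, 21.6, 22.7 and 27.4 CPM in ko, and its 95% interval ran from -0.37 to 0.26. For Egr3, with 22.3, 24.2, 23.7 and 21.4 CPM in wt against 17.0, 21.3, 22.2 and 23.0 CPM in ko, the interval ran from -0.39 to 0.19. Replicate 4 of the ko group was the highest of its group for all 6 genes and replicate 1 was below the group mean for all 6. Egr2 had 11.6, 11.7, 9.12 and 11.1 CPM in wt and 6.35, 7.73, 6.63 and 11.3 CPM in ko, with 3 ko libraries below all wt libraries and replicate 4 among them. The fitted log2 change was -0.42 (SE 0.225, adjusted p = 0.29, edgeR), or -0.60 without ko replicate 4 (adjusted p = 0.0934, edgeR).

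At 72 h all 6 genes were lower in ko than in wt cells, and in CPM the highest ko library was below the lowest wt library for each. How many of all tested genes lie apart in this way was not counted, so this does not set the 6 apart. CPM rests on library totals, and with that scaling the all-gene median was -0.14, against -0.02 with the scaling of the main fit. With library totals 4779 of 15197 tested genes were called lower and 1464 higher (edgeR). Whether the libraries stay apart under the scaling of the main fit was not examined. For Egr1 the gap was small, 38.2 against 40.0 CPM, and may close under that scaling. Nr4a3 had 129, 121, 125 and 115 CPM in wt and 41.2, 41.7, 41.9 and 47.9 CPM in ko. It was lower by a log2 difference of -1.38 (SE 0.0743, adjusted p = 2.23e-12, edgeR), 2.6-fold lower, and by p it stood at rank 6 of the 15197 tested genes. Nr4a2 had 40.9, 39.1, 36.8 and 32.8 CPM in wt and 18.9, 17.5, 14.2 and 14.5 CPM in ko, a log2 fold change of -1.07 (SE 0.0972, adjusted p = 2.02e-08, edgeR). Of the NR4A genes Nr4a1 differed least: wt libraries had 115, 105, 115 and 109 CPM and ko libraries 57.2, 61.2, 58.8 and 71.6 CPM, a log2 fold change of -0.71 (SE 0.0736, adjusted p = 1.59e-07, edgeR).

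Egr3, with EGR2 a restraint on T cell activation, had the lowest log2 fold change of the 6 at 72 h. It had 30.1, 29.1, 40.3 and 42.5 CPM in wt and 9.60, 12.9, 8.13 and 14.1 CPM in ko, a log2 fold change of -1.54 (SE 0.146, adjusted p = 1.5e-07, edgeR) or 2.9-fold lower. Egr2, its close relative, had 8.46, 9.55, 11.1 and 11.3 CPM in wt and 2.07, 3.98, 2.13 and 5.91 CPM in ko, the last 4 values resting on 71, 138, 64 and 196 reads. Replicates 1 and 3 of the ko group were low and replicates 2 and 4 higher, and its log2 difference of -1.39 came with the widest error of the 6 (SE 0.243, adjusted p = 0.000192, edgeR). Egr1 had 40.0, 40.2, 52.6 and 44.1 CPM in wt and 24.3, 25.3, 18.1 and 38.2 CPM in ko, with ko replicate 4 close to the lowest wt library. Its log2 fold change of -0.61 (SE 0.148, adjusted p = 0.00308, edgeR) was nearest to 0 of the 6.

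In this comparison 19.5% of all tested genes were lower, 16.9% higher and 36.4% called in either direction (edgeR's quasi-likelihood test). The median log2 fold change was -1.22 over the 6 genes and -0.02 over all tested genes. With library-size scaling the all-gene median moved to -0.14, and the 6 genes were lower under that scaling too. The ko libraries at 72 h deviated together: replicate 3 lay below the group mean for all 6 genes and replicate 4 above it for 5 of them, Nr4a2 being the exception. Without ko replicate 3 Egr1 stood at -0.46 (adjusted p = 0.00809, edgeR), and without ko replicate 4 at -0.84 (adjusted p = 6.18e-06, edgeR). Without both libraries that stand apart, all 6 genes were called lower, from -0.60 for Egr1 to -1.42 for Egr3.

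**Figure D2:**
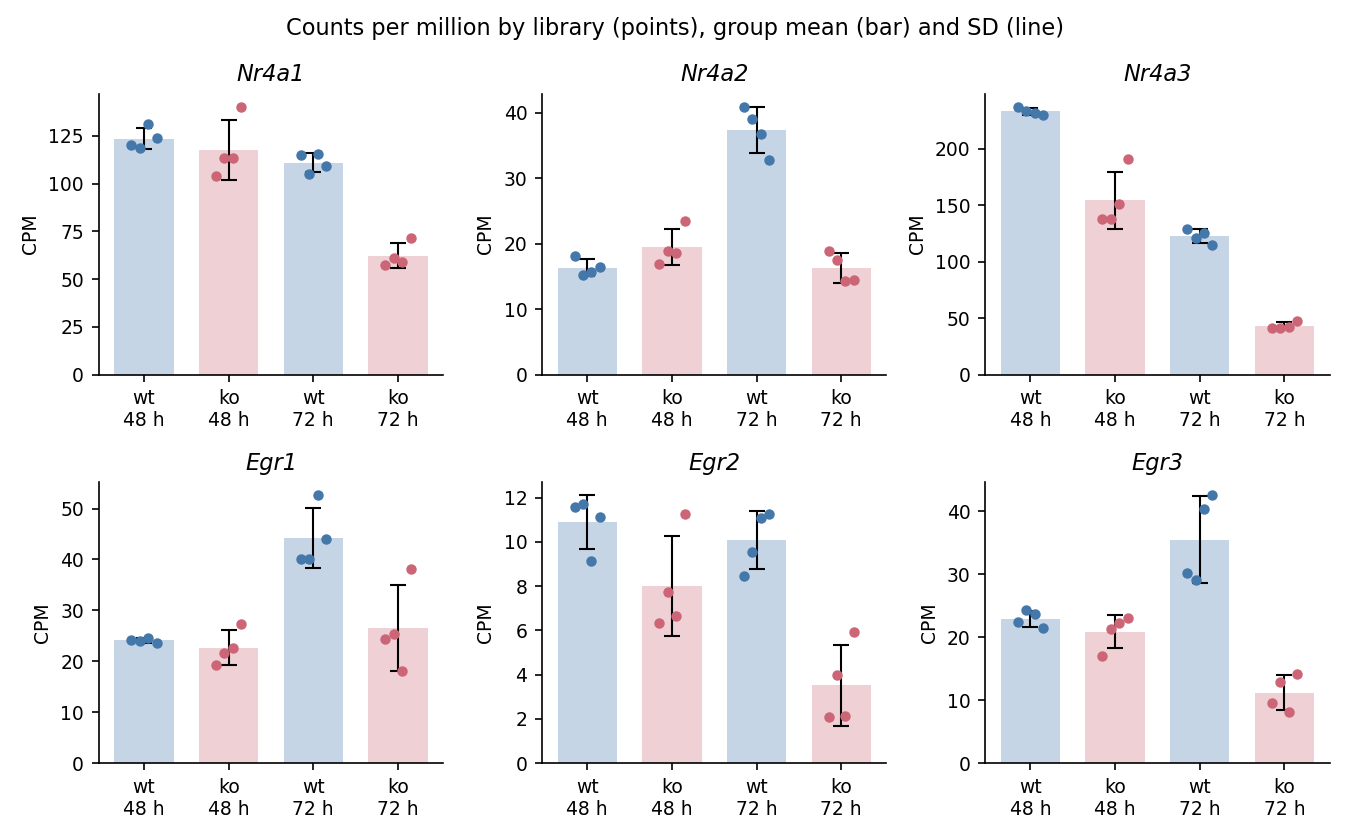
CPM of the 6 genes in each library (points), with the mean (bar) and SD (line) of the 4 libraries of a group, wt in blue and ko in red. On this scale the ko libraries at 72 h lie below all wt libraries at 72 h for each gene, narrowly for Egr1. At 48 h the groups are apart for Nr4a3 alone. How many of all tested genes lie apart in this way was not counted.

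**Figure D3:**
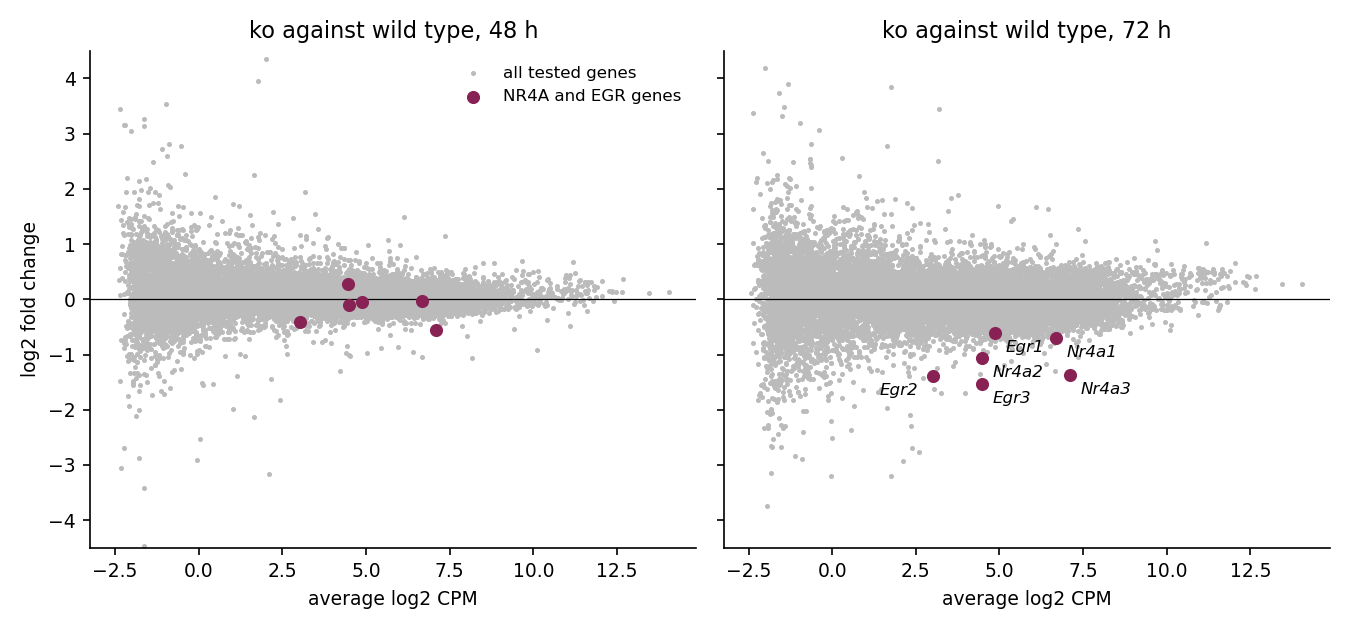
Log2 fold change of ko against wt for all tested genes (grey) and the 6 genes (purple) against average log2 CPM, at 48 h and at 72 h; 14 genes lie beyond the y axis in each panel. At 48 h 1 of the 6 was called and at 72 h all 6, between -0.61 and -1.54.

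From 48 h to 72 h the 6 genes moved in different directions in wt cells. Nr4a2, Egr1 and Egr3 rose, by 1.17 (SE 0.0969, adjusted p = 1.49e-10), 0.85 (SE 0.148, adjusted p = 4.84e-05) and 0.60 (SE 0.139, adjusted p = 0.000694) on the log2 scale in edgeR's quasi-likelihood test. Nr4a2 went from a mean of 16.4 ± 1.23 to 37.4 ± 3.50 CPM (SD, n = 4), 2.24-fold higher in the fit. Nr4a3 fell by 0.96 (SE 0.0721, adjusted p = 2.63e-11, edgeR), from 233.0 ± 3.0 to 122 ± 6.04 CPM. Nr4a1 was lower by a small amount, at -0.18 (SE 0.0725, adjusted p = 0.033, edgeR), a call that was lost without wt 48 h replicate 3 (adjusted p = 0.103), wt 48 h replicate 4 (0.0584) or wt 72 h replicate 2 (0.0882) and with library-size scaling (0.0968). Egr2 stood at -0.14 with a 95% interval from -0.60 to 0.33. These are 3 higher and 2 lower of 6, where 33.6% of all tested genes were higher and 29.9% lower, 63.6% in all; the median was 0.23 over the 6 and 0.05 over all tested genes.

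In ko cells none of the 6 genes rose past the threshold from 48 h to 72 h, and 4 fell. Nr4a3 fell by 1.77 (SE 0.0748, adjusted p = 4.09e-16, edgeR), 3.41-fold, from 154 ± 25.2 to 43.1 ± 3.17 CPM (SD, n = 4). Egr2 fell by 1.10 (SE 0.245, adjusted p = 0.000505), Nr4a1 by 0.85 (SE 0.0736, adjusted p = 2.23e-10) and Egr3 by 0.83 (SE 0.146, adjusted p = 3.54e-05), all in edgeR. Egr3 thus moved in opposite directions over these hours in the 2 genotypes. Nr4a2 stood at -0.19 (adjusted p = 0.097, edgeR) and Egr1 at 0.29 (adjusted p = 0.0918, edgeR). Nr4a2 passed as lower without ko 72 h replicate 1 (adjusted p = 0.0252, edgeR), and Egr1 as higher without ko 72 h replicate 3 (adjusted p = 0.00413, edgeR). Of all tested genes 33.6% were lower, 34.4% higher and 68.0% called in all, and the median was -0.84 over the 6 and 0.03 over all tested genes. The genotype and time comparisons share libraries, so their values are set side by side and are not independent.

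**Figure D4:**
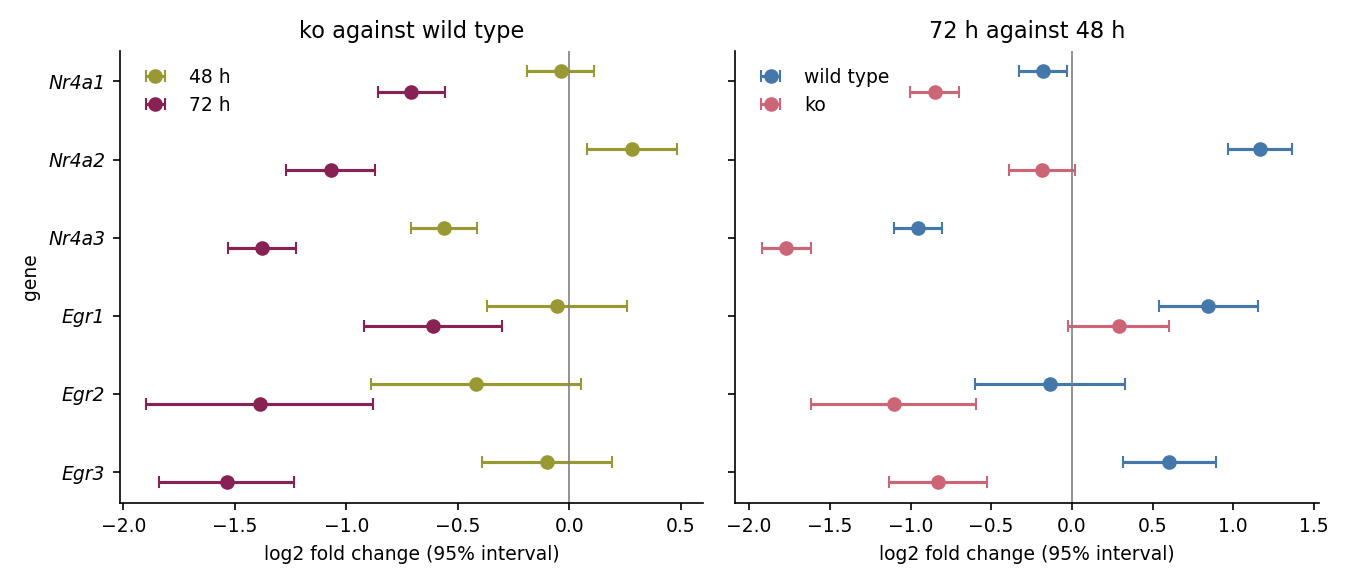
Log2 fold changes of the 6 genes with 95% intervals, for ko against wt at 48 h and 72 h (left) and for 72 h against 48 h in each genotype (right). At 72 h all 6 lie below 0 in ko cells; over time Nr4a2, Egr1 and Egr3 lie above 0 in wt cells, and Nr4a2 and Egr1 have intervals that include 0 in ko cells.

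The test of the difference itself, the interaction of genotype and time, was past the threshold for 4 of the 6 genes, all in the lower direction. It was -1.35 for Nr4a2 (SE 0.138, adjusted p = 3.58e-06, edgeR's quasi-likelihood test), rank 2 by p among all tested genes, and -1.43 for Egr3 (SE 0.202, adjusted p = 0.000334). For Nr4a3 it was -0.81 (SE 0.102, adjusted p = 5.12e-05, edgeR) and for Nr4a1 -0.67 (SE 0.103, adjusted p = 0.00039, edgeR), so the log2 fold change of ko against wt was lower at 72 h than at 48 h for these 4 genes. For Nr4a2 that fold change crossed 0, from 0.28 at 48 h, not past the threshold, to -1.07 at 72 h. Of all tested genes 3.53% passed in that direction, 2.08% in the other and 5.61% in either, and the median was -0.89 over the 6 genes and -0.04 over all tested genes. Egr2 at -0.97 (adjusted p = 0.0933, edgeR) and Egr1 at -0.55 (adjusted p = 0.131, edgeR) did not pass with all libraries. Without ko 72 h replicate 4 both did, at -1.33 (adjusted p = 0.0053) and -0.78 (adjusted p = 0.00308, edgeR).

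Within a library, the ratio of 2 genes of a family does not depend on the scaling between libraries, and 12 such ratios were compared (3 pairs per family at each time). The log2 ratio of Nr4a3 to Nr4a1 was 0.978, 0.978, 0.824 and 0.89 in wt and 0.412, 0.283, 0.407 and 0.448 in ko libraries at 48 h, a difference of -0.53. At 72 h it was 0.168, 0.204, 0.118 and 0.073 in wt and -0.473, -0.555, -0.49 and -0.581 in ko, a difference of -0.67. Relative to Nr4a1, Nr4a3 was lower in each ko library than in each wt library of the same time, and the 4 groups followed each other without overlap. The ratio of Nr4a2 to Nr4a1 was higher in ko by 0.32 at 48 h without overlap, and differed by -0.36 at 72 h, on the other side of 0, with overlap. That of Nr4a3 to Nr4a2 was lower by 0.85 at 48 h without overlap and differed by -0.30 at 72 h with overlap. In the EGR family the log2 ratio of Egr3 to Egr1 at 72 h was -0.408, -0.467, -0.385 and -0.0523 in wt and -1.34, -0.968, -1.16 and -1.43 in ko, a difference of -0.90. That of Egr2 to Egr1 differed by -0.86 at 72 h. For Egr3 to Egr2 the mean differed by -0.03 at 72 h, with ko values spread from 1.26 to 2.21 around the wt values of 1.6 to 1.91, and the difference ran from -0.178 to 0.139 without 1 library. The 6 ratios without overlap reached p = 0.0286 in the two-sided exact permutation test, the smallest that 4 libraries against 4 allow, and 0.0571 after adjustment over the 12, so none passed the threshold.

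**Figure D5:**
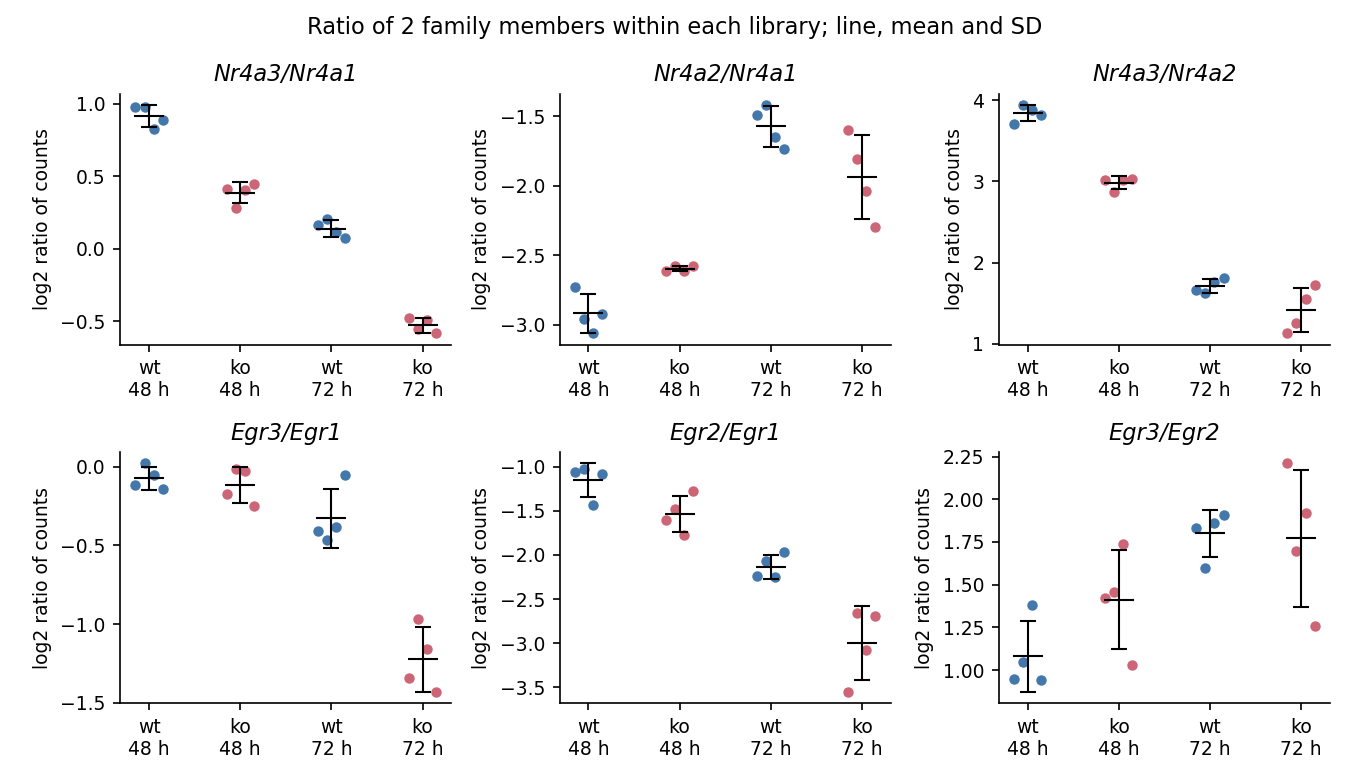
Log2 ratio of the counts of 2 genes of a family in each library (points), with the mean and SD of the 4 libraries of a group, wt in blue and ko in red. Nr4a3/Nr4a1 is lower in ko at both times without overlap, Egr3/Egr1 and Egr2/Egr1 at 72 h, and the groups overlap for Egr3/Egr2.

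The genes with the most similar course over the 16 libraries differed between the 6. By the root mean square distance of centred log2 CPM, and with the 6 genes themselves left out of the search, Nr4a1 lay nearest to Timeless (0.0921) and Acly (0.093), Nr4a2 to Adamts6 (0.23) and Igf2bp3 (0.243), and Nr4a3 to Ccr4 (0.167) and Plxna1 (0.205). Egr1 lay nearest to Grn (0.194) and Nlrc3 (0.198), Egr2 to Ccr4 (0.402) and Tubgcp6 (0.416), and Egr3 to Penk (0.275) and Synpo (0.283). Among the 6 themselves the smallest distance was that of Nr4a2 and Egr1 (0.316), which cross the families. Egr2 and Egr3 followed (0.378), closer than any searched gene outside the 6 was to Egr2. The largest distance was that of Nr4a3 and Egr1 (1.02). Nr4a2 and Nr4a3 lay 0.985 apart.

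The lists below read against 36.4% of all tested genes called at 72 h, with a median of -0.02, and 7.07% at 48 h, with a median of 0.01. By direction these were 16.9% higher and 19.5% lower at 72 h, and 4.41% higher and 2.66% lower at 48 h. Other early response genes did not share one direction at 72 h. Among 19 tested, ko cells had 5 higher and 2 lower, with a median of -0.05 on the log2 scale. Calls thus came at about the share of all tested genes. Jun, a partner of BATF3 in AP-1 dimers, was higher at 0.68 (SE 0.0895, adjusted p = 3.3e-06, edgeR), with 28.6 ± 2.83 CPM in wt and 42.1 ± 3.45 CPM in ko (SD, n = 4). Maff, which encodes a small Maf factor, was higher at 0.52, and Zfp36, whose protein speeds the decay of AU-rich RNAs, at 0.45 (adjusted p = 0.0099, edgeR, and 0.0627 with library-size scaling). Fos, with 1.8 ± 0.226 CPM in wt, was lower at -0.70 (adjusted p = 0.0143, edgeR, 0.0626 without ko 72 h replicate 2 and 0.0651 in a fit of the compared groups only). The remaining calls, named after their values were seen, were Cd69 at 0.41 and Fosl2 at 0.33, higher, and Myc at -0.33, lower. At 48 h the median was 0.10, and 2 of 19 were higher and 0 lower, Btg2, an antiproliferative gene, at 0.33 and the AP-1 gene Jund at 0.22. The call of Jund was lost when wt 48 h replicate 1 or 4, ko 72 h replicate 3, or any of ko 48 h replicates 1, 2 and 3 was left out, with adjusted p up to 0.133 (edgeR), and also with library-size scaling (0.06), in a fit of the compared groups only (0.0518) and with exon length offsets (0.109).

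Upstream of these genes, 4 of 14 tested genes of calcineurin and NFAT signalling were lower at 72 h and 0 higher, with a median of -0.13. Of all tested genes 19.5% were lower and 36.4% called in either direction, so the number of calls does not set this list apart. Nfatc1, an NFAT factor induced on activation, was lower at -0.52 (SE 0.0719, adjusted p = 6.94e-06, edgeR), and Nfatc2, the NFAT factor of resting T cells, at -0.33. Cabin1, whose protein inhibits calcineurin, was lower at -0.56 (adjusted p = 0.000849, edgeR). Orai1, the pore of the store-operated calcium channel, was lower at -0.23, a call lost without wt 72 h replicate 1 or 3 or ko 72 h replicate 1 or 3 (highest adjusted p = 0.0727, edgeR) and in a fit of the compared groups only (0.0513). At 48 h, with a median of -0.09, Nfatc2 alone was called, where 7.07% of all tested genes were. It was lower at -0.32 (adjusted p = 0.0223, edgeR), a call lost without wt replicate 1 or 3 or ko replicate 1 or 2 (highest adjusted p = 0.0777).

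Of 13 tested cofactors and upstream factors, 2 were higher and 2 lower at 72 h, with a median of -0.06. With 36.4% of all tested genes called, the number of calls does not set this list apart. Rxra, the nuclear receptor that can pair with NR4A1 and NR4A2, was lower at -1.63 (SE 0.144, adjusted p = 1.35e-08, edgeR), from 5.44 ± 0.66 CPM in wt to 1.60 ± 0.218 CPM in ko (SD, n = 4). Srf, which acts on CArG boxes such as the one shown for Egr2, was lower at -0.25 (adjusted p = 0.0022, edgeR). Crem, a factor of the CRE whose products include repressors, was higher at 0.61 (SE 0.0801, adjusted p = 3.78e-06, edgeR), and Nab1, which represses EGR activity, at 0.30 (adjusted p = 0.00106, edgeR). At 48 h the median was 0.05, and 0 were higher and 2 lower, Rxra at -0.42 and Srf at -0.24 (adjusted p = 0.0246 and 0.0127, edgeR). The call of Rxra at 48 h was lost without wt replicate 1, 2 or 3 or ko replicate 2 or 4 (highest adjusted p = 0.0932, edgeR).

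Genes linked to EGR2 and EGR3 in T cells were divided at 72 h, with 5 of 19 tested higher and 5 lower and a median of 0.09. Over all tested genes the shares were 16.9% higher and 19.5% lower at 72 h, and 4.41% higher and 2.66% lower at 48 h. Nrgn, which encodes neurogranin, was lower at -1.43 (SE 0.149, adjusted p = 1.67e-07, edgeR). Socs3, an inhibitor of cytokine signalling, was higher at 1.45 (SE 0.135, adjusted p = 1.93e-07, edgeR), and Ndrg1, linked to anergy, and Nrn1, which encodes neuritin, at 0.61 and 0.59. Named after their values were seen, Lag3 and Tnfrsf9 were the other 2 higher genes, and Tnfsf11, Crtam, Fasl and Id3, between -0.53 and -0.26, the other 4 lower ones. At 48 h the median was 0.06, and 3 of 19 were higher and 0 lower, Ndrg1 at 0.56, Socs3 at 0.49 and Lag3 at 0.46. Socs3 at 48 h was lost without wt replicate 2 or 3 or ko replicate 1, 2 or 4 (highest adjusted p = 0.101, edgeR), without both libraries that stand apart (0.0654) and with exon length offsets (0.06).

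Of 15 tested genes linked to NR4A factors in T cells, ko cells had 8 higher and 2 lower at 72 h, with a median of 0.25, while the 3 NR4A genes themselves were lower. The inhibitory receptor genes Tigit, Havcr2 and Lag3 were higher at 0.55, 0.52 and 0.50 (adjusted p = 4.58e-06, 0.00019 and 0.000131, edgeR), and the transcription factor gene Nfil3 at 0.50. The 2 lower genes, named after their values were seen, were the transcription factor genes Irf4 at -0.36 and Tox at -0.43. Lag3 stood at 320.3 ± 26.0 CPM in wt and 413 ± 33.6 CPM in ko (SD, n = 4). At 48 h 5 of 15 were higher and 0 lower, with a median of 0.26, led by Havcr2 at 0.76 and Lag3 at 0.46 (adjusted p = 0.000117 and 0.0024, edgeR). The other 3, Pdcd1, Cd160 and Batf, named after their values were seen, stood at 0.39, 0.36 and 0.26. Lag3 and Tnfrsf9 stand in both of the last lists, and Nab2 in those of the cofactors and of EGR2 and EGR3.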

How the data were processed

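Poly-A RNA was sequenced from 16 libraries in 4 groups of 4 (wt and Batf3 ko, 48 h and 72 h). The authors deposited raw read counts per gene, not normalized. The build GRCm38 and the tools featureCounts, STAR 2.7 and bcl2fastq 2.2.0 are named in the submitters' processing notes; per the labels' protocols, libraries were stranded and made from 100 ng of RNA. Which annotation and strand setting were used, and how multimapping reads were treated, is not given in the sources used here. Exon lengths and positions came from GENCODE M21, in which 55154 of 55335 identifiers were found.

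CPM was computed from column sums. Tests used edgeR 4.0.16 in R 4.3.3 (quasi-likelihood, TMM scaling, robust) on all 16 libraries, with genes kept by a minimum count of 10, which left 15197, all 6 described genes among them, and Benjamini-Hochberg adjustment over these. The standard error is the size of the log2 fold change over the square root of F. Ratios within a library had 0.5 added to each count and were compared by exact permutation tests. The procedure was run on simulated data for the genotype comparisons only, with the same spread for every gene. Time comparisons, the interaction and genes with a larger spread, such as Egr2 in ko cells at 72 h, were not simulated. Alternatives were other scalings, filters, DESeq2 1.42.0, limma-voom 3.58.1, a fit of the compared groups only, a replicate block and leaving out each library; added after seeing the data were leaving out 2 libraries together, exon length offsets and the TGACG motif. No pair of libraries of a group agreed within sampling noise.

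The genes and lists were chosen with earlier results of these data known. Named besides the 6 were up to 4 genes per list past the threshold at 72 h and up to 2 at 48 h, those with the largest absolute log2 fold change. Also named were the 2 genes nearest to each of the 6 among genes averaging 1 or more in log2 CPM. Clone-named genes and pseudogenes, known by their symbols, were left out of that search. Of 16 cofactor genes, 14 were found by symbol. Promoter sequences came from the RefSeq table of GRCm38.p6.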

Additional observations from a re-analysis of the deposited data

Results flagged for a closer look

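The effect of the genotype differed between 48 h and 72 h for 4 of the 6 genes by the test of the interaction in edgeR. The interaction was -0.67 for Nr4a1, -1.35 for Nr4a2, -0.81 for Nr4a3 and -1.43 for Egr3 on the log2 scale.

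The highest of the 4 ko libraries at 72 h stood away from the other 3 for Nr4a3, at 47.9 CPM, by Dixon's criterion. This was 1 of 24 groups of 4 values looked at, of which chance flags about 5%.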

How the results depend on the processing

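Of 30 gene results (6 genes in 5 comparisons), 22 kept their direction and their side of the threshold under all alternatives, 26 fits for the genotype and time comparisons and 25 for the interaction. These include all 6 genes at 72 h and Nr4a3 at 48 h. With no filter, Egr2 at 48 h passed (adjusted p = 0.0156, edgeR), giving 2 called genes in place of 1, and all 6 genes passed in the interaction and over time in ko cells. Without ko 48 h replicate 1, Nr4a1 and Egr1 at 48 h reversed to 0.004 and 0.00276, neither past the threshold; without 1 library at a time they ran from -0.112 to 0.004 and from -0.136 to 0.00276. Exon length offsets ended the call of Nr4a1 over time in wt cells (adjusted p = 0.515) and made Egr1 pass over time in ko cells (0.018). Library-size scaling made Nr4a2 pass over time in ko cells (0.0381). The replicate numbers did not pair the libraries (correlations from -0.232 to 0.263, with 2 of 16 matching best with their own number). With the replicate block 918 genes were called at 48 h in place of 1075 and 709 in the interaction in place of 853, and among the 6 genes the block changed only Egr2 in the interaction, which passed at -0.99 (adjusted p = 0.0302), as it did with limma-voom (0.0403). Over all genes, calls at 48 h were 1638 with DESeq2, 2552 without both libraries that stand apart and 507 to 1955 without 1 library; calls in the interaction were 1414 with library-size scaling and 446 to 1056 without 1 library; the cause was not tested. Library-size scaling moved the share of higher calls from 62.3% to 48.3% at 48 h, from 46.4% to 23.5% at 72 h and from 37.0% to 12.9% in the interaction, and DESeq2 moved it to 48.5% at 48 h. Single libraries moved this share too. Without ko 72 h replicate 3 it was 48.1% at 48 h and 54.7% in the interaction. Without ko 48 h replicate 2 it was 49.3% in the interaction. The difference in the Egr3 to Egr2 ratio at 72 h ran from -0.178 to 0.139 without 1 library, reversed at 0.00511 without wt replicate 4 and at 0.139 without ko replicate 4. Egr2 in ko cells at 72 h rests on as few as 64 reads, which limits its precision.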
